A study of Mus musculus with 6 samples.

Results

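Sox9, Pdx1, Onecut1, Hes1, Klf4, Klf5, Sox4 and Foxa2 are transcription factors of the pancreatic duct and of the embryonic pancreatic progenitor, and several of them are known from acinar-to-ductal metaplasia, the change of acinar cells toward a duct-like state. They were taken by Ensembl identifier from the deposited tables, where they are 8 of 22556 genes listed. RNA sequencing was made from whole pancreas of wild type C57BL/6 mice aged 8 weeks, in 3 groups of 2 libraries. The saline group received saline. The caerulein-AP group (acute pancreatitis, AP; spelled cerulein in the labels) received 10 injections of caerulein at 200 µg/kg, and the polyI:C-pretreated AP group received polyI:C at 10 mg/kg before the same caerulein course. Per the study's methods the mice were male, had fasted, and were killed 24 h after the first caerulein injection. Caerulein is an analog of cholecystokinin that overstimulates acinar cells, and polyI:C is a synthetic double-stranded RNA that triggers type I interferon. The comparisons ask how the level of these factors differed between AP and healthy pancreas, and between AP with and without polyI:C pretreatment. No sequenced group received polyI:C alone. In the pretreated group versus saline, the parts of polyI:C and of caerulein therefore cannot be told apart.

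In the embryo, Foxa2 opens the way for Pdx1. Pdx1, Sox9 and Onecut1 are factors of the progenitors, which the Notch target Hes1 helps to keep undifferentiated. In the adult, Sox9, Onecut1 and Hes1 are kept in duct and centroacinar cells, while Pdx1 and Foxa2 are also strong in islet beta cells. Klf4, Klf5 and Sox4 are epithelial factors known from injured or metaplastic pancreas, and Klf4, Klf5, Sox9, Hes1 and Pdx1 are also known from the epithelium of the gut. Because whole tissue was sequenced, a lower level through fewer cells of a type and through less RNA per cell cannot be told apart.

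Values are TPM, a gene's share of the transcripts of the listed genes in a library after division by length, that can be compared between genes. The spacing of low TPM values put the depth over the listed genes at about 3296940 to 3974132 reads in the saline libraries. It was 6932599 to 8847393 in AP and 8821044 to 10852468 in polyI:C-pretreated AP, so the saline levels rest on the fewest reads. Behind the 8 factors stood between 14.2 estimated reads (Hes1 in saline replicate 2) and 767 (Sox4 in polyI:C-pretreated AP replicate 2). The labels do not say whether a library came from 1 mouse or from several, so p-values measure only the spread between these libraries, which may be technical. A gene is called changed here where limma's adjusted p was at most 0.05 and the fold change at least 2, and an exact permutation test of 2 against 2 libraries cannot go below a two-sided p of 0.333. Fold changes were taken from log2(TPM + 0.5), so those of low genes come out too small, and values after ± are SDs with n = 2.

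PolyI:C-pretreated AP replicate 2 stood apart. The summed level of 12 genes of small intestinal epithelium was 3979 TPM there and 4.78 to 8.99 TPM in the other 5 libraries, with Fabp1 at 1430 TPM against 3.35 or less elsewhere. Cdx1 and Cdx2, the homeobox genes that define intestine, stood at 10.7 and 14.6 TPM in it and were listed at 0 in the other 5. Hnf4g was at 61.4 TPM in it and at 0.558 TPM in replicate 1 of the same group. Of the 8 factors, Pdx1 was 1.85-fold, Klf5 1.62-fold, Klf4 1.58-fold, Sox9 1.17-fold, Onecut1 1.16-fold and Sox4 1.15-fold higher in this library than in replicate 1, while Foxa2 was 1.20-fold and Hes1 1.04-fold higher in replicate 1. The part of this library in the results was not tested, and the differences of the 8 factors between the polyI:C-pretreated group and the others are therefore also given without it. With that group reduced to replicate 1, the lone library is assumed to vary like the other groups.

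Over the 3 comparisons, Hes1 and Sox4 were higher than saline in both AP and polyI:C-pretreated AP. Foxa2 was low in AP and high after polyI:C pretreatment, and the other 5 factors moved less or varied more between replicates. In AP versus saline, 2 of the 8 were called, both higher, where 22.2% of the 16814 tested genes were called (18.2% higher, 4.03% lower). Between the pretreated and the AP group, 1 of the 8 was called higher, where 0.845% of genes were called (0.44% higher, 0.404% lower). Pretreated AP versus saline gave 3 of the 8 called higher, where 19.9% were called (16.9% higher, 2.97% lower). All 8 passed the filter of a mean of at least 1 TPM. Their median log2 fold changes were 0.16, 0.54 and 0.70 in these comparisons, against 0.45, 0.04 and 0.48 over all tested genes.

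**Figure D1:**
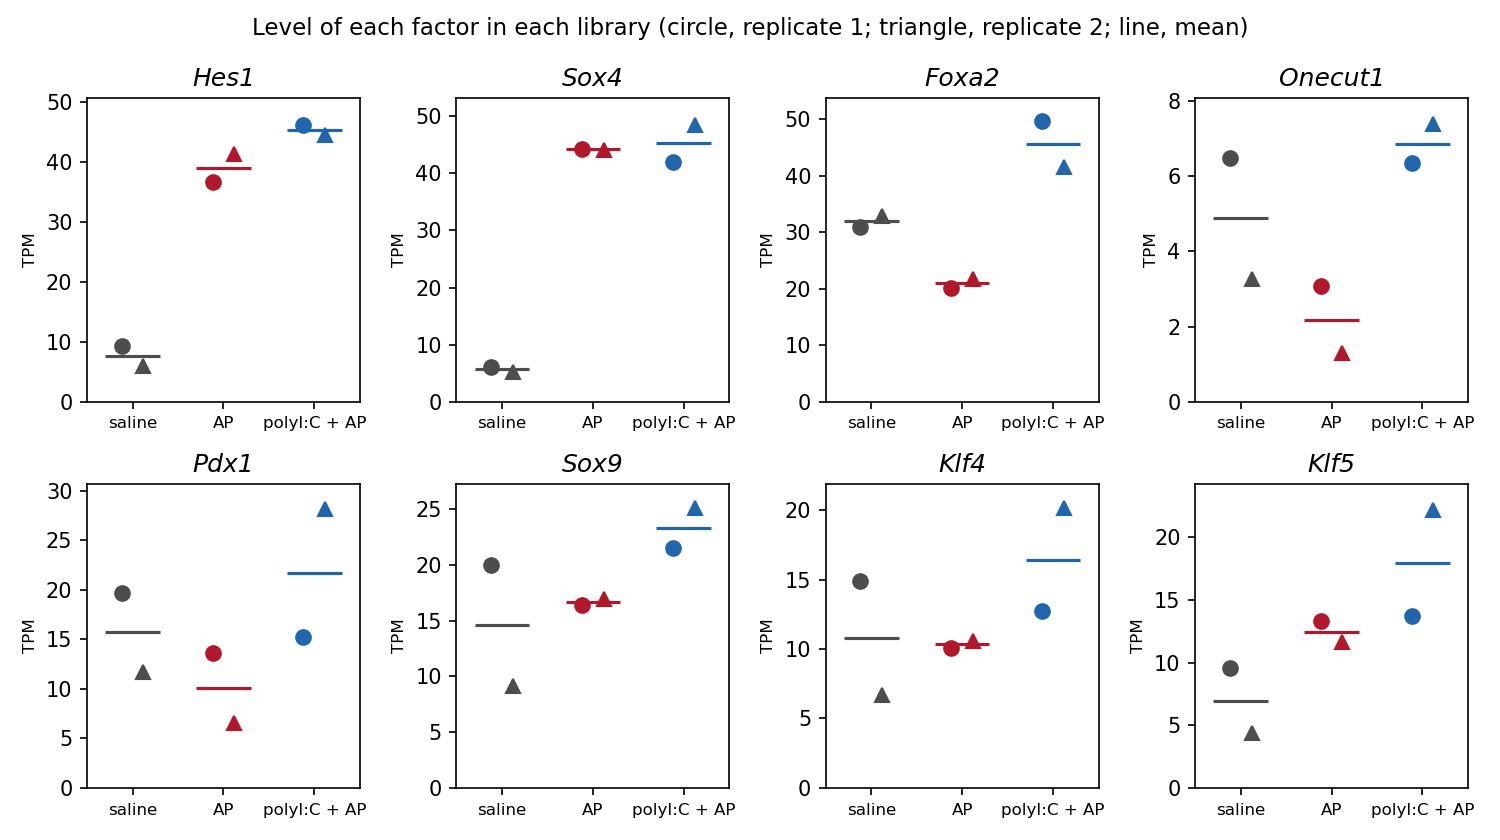
Level of each of the 8 factors in TPM (y axis, from 0) in the 3 groups named on the x axis, with a circle for replicate 1, a triangle for replicate 2 and a line at the group mean. Hes1 and Sox4 stand at 9.34 TPM or less in saline and at 36.7 TPM or more in the other 4 libraries, and Foxa2 is lowest in the AP libraries at 20.1 and 21.8 TPM.

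The all-gene median of 0.45 in AP versus saline depends on the scaling. With the TPM rescaled by the median of ratios, the medians over all genes became 0.06, 0.02 and 0.06, and the share of called genes that were higher went from 81.8% to 56.2% in AP versus saline, from 52.1% to 48.9% in polyI:C-pretreated AP versus AP, and from 85.0% to 57.4% in polyI:C-pretreated AP versus saline. A factor whose log2 fold change versus saline lies near 0.45 therefore moved like the median gene.

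Sox4, a SoxC factor of progenitor and repair states (ENSMUSG00000076431, GRCm38 chromosome 13, 28948919 to 28953713, minus strand), had the largest rise of the 8. Its level was 6.14 and 5.27 TPM in the saline libraries, 44.2 and 44.1 TPM in AP, and 42.0 and 48.5 TPM in polyI:C-pretreated AP. Saline did not overlap the other groups, and the AP and polyI:C-pretreated groups overlapped. The mean went from 5.71 ± 0.617 TPM in saline to 44.2 ± 0.0479 TPM in AP, a 7.74-fold ratio with a log2 fold change of 2.85 (SE 0.13, adjusted p = 4.58e-05, limma). After polyI:C pretreatment the mean was 45.3 ± 4.59 TPM, 7.93-fold the saline mean (log2 fold change 2.88, SE 0.13, adjusted p = 4.14e-05). The difference between polyI:C-pretreated AP and AP was 0.03 on the log2 scale, with a 95% interval from -0.28 to 0.34. Without polyI:C-pretreated AP replicate 2 the rise over saline was 2.78 (adjusted p = 0.00413) and the difference from AP was -0.07. The annotation places a long noncoding gene, Gm26735, on the opposite strand over part of Sox4, and whether reads were counted by strand is not stated.

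Sox4 had the largest change of the 8 in the first comparison. Foxa2 had the only call of the 8 in the second, which was lost on leaving out any 1 library. For these reasons the 250 bases before the start of Sox4 and of Foxa2 are shown. They are RefSeq promoter windows on GRCm38.p6 (5 of the 8 factors had an entry: Pdx1, Onecut1, Klf4, Sox4 and Foxa2), written 5′ to 3′ on the gene's strand, with the CCAAT box (CCAAT, or ATTGG on the other strand) in capitals. The Sox4 window is chr13:28953700-28953949, and its last 14 bases lie inside the GENCODE gene. The Foxa2 window is chr2:148046970-148047219, the window of 1 of 3 starts that RefSeq lists.
Sox4: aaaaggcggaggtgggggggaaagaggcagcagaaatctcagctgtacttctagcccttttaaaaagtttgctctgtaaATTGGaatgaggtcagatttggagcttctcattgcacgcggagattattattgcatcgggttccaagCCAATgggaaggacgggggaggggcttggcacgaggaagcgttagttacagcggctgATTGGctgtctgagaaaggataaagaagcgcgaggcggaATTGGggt
Foxa2: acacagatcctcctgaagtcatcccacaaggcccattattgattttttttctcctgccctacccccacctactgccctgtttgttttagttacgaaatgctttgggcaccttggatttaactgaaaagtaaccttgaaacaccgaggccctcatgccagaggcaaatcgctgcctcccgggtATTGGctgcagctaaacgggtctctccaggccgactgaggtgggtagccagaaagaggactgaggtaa
Sox4 held 4 CCAAT matches, which end 167, 100, 43 and 4 bases before the start, and 0.84% of 32841 promoter windows of the same length held at least 4. Foxa2 held 1 match, which ends 64 bases before the start, and 33.9% of the windows held at least 1. Neither window held TATAAA, the RBPJ letters GTGGGAA, the AP-1 letters TGANTCA, the STAT letters TTCNNNGAA or the interferon response element on either strand, which were found in 12.4%, 5.41%, 6.75%, 7.02% and 2.98% of the windows. A match of letters is a description of the window and not of a factor's binding.

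Hes1 (ENSMUSG00000022528, chromosome 16, 30064384 to 30067796, plus strand) encodes the basic helix-loop-helix repressor through which Notch signals in progenitors and ducts. Its level was 9.34 and 5.89 TPM in saline, 36.7 and 41.4 TPM in AP, and 46.3 and 44.5 TPM in polyI:C-pretreated AP. No groups overlapped, and the step from saline to AP was much wider than the step from AP to polyI:C-pretreated AP. The AP mean of 39.0 ± 3.36 TPM was 5.13-fold the saline mean of 7.61 ± 2.44 TPM (log2 fold change 2.32, SE 0.23, adjusted p = 0.000493, limma). The polyI:C-pretreated mean of 45.4 ± 1.24 TPM was 5.96-fold the saline mean (2.53, SE 0.23, adjusted p = 0.000393). Between polyI:C-pretreated AP and AP the log2 difference was 0.22 with a 95% interval from -0.33 to 0.76 (adjusted p = 0.74). Without polyI:C-pretreated AP replicate 2, the log2 fold change was 2.56 over saline (adjusted p = 0.0119) and 0.25 over AP (adjusted p = 0.89).

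Foxa2 (ENSMUSG00000037025, chromosome 2, 148042877 to 148046969, minus strand) encodes a forkhead pioneer factor of foregut endoderm that acts upstream of Pdx1. Its level was 31.0 and 32.9 TPM in saline, 20.1 and 21.8 TPM in AP, and 49.7 and 41.5 TPM in polyI:C-pretreated AP. The 3 groups did not overlap, with AP lowest and polyI:C-pretreated AP highest. AP was 34.4% below saline (means 20.9 ± 1.21 and 31.9 ± 1.30 TPM), a log2 fold change of -0.60 (SE 0.15, 95% interval -0.96 to -0.23, adjusted p = 0.0207), which passed the p threshold and not the 2-fold one. PolyI:C-pretreated AP, at 45.6 ± 5.81 TPM, was 2.18-fold AP (1.10, SE 0.15, 95% interval 0.73 to 1.47, adjusted p = 0.0314, limma), the only call among the 8 in that comparison. Against saline it was 1.43-fold (0.50, SE 0.15, adjusted p = 0.0398), which was under 2-fold, and 0.63 without polyI:C-pretreated AP replicate 2 (adjusted p = 0.0575). The comparisons are not independent, since each pair of them shares the libraries of 1 group. Rescaling by the median of ratios made AP versus saline a call (-1.02, adjusted p = 0.00285) and brought polyI:C-pretreated AP to 0.05 over saline. The difference from AP stayed between 0.97 and 1.23 over 15 alternatives, but its adjusted p ranged from 0.0238 to 0.354. Without polyI:C-pretreated AP replicate 2, the library with intestinal genes, it was 1.23 (adjusted p = 0.246), and no gene of all those tested was called in that fit. The call was also lost on leaving out any of the other 5 libraries.

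**Figure D2:**
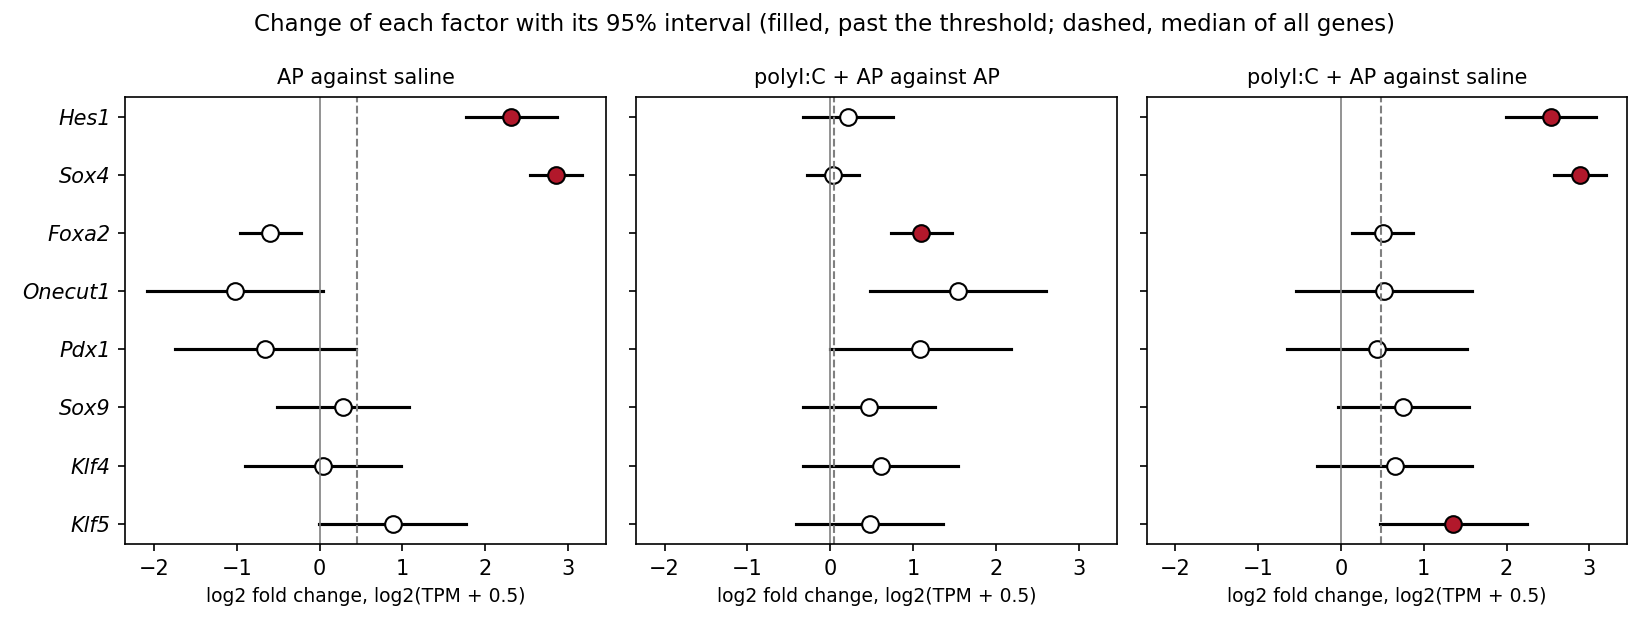
log2 fold change of each factor (x axis, on the log2(TPM + 0.5) scale) with its 95% interval in the 3 comparisons (panels), filled where called, with a dashed line at the median of all tested genes. Sox4 and Hes1 lie between 2.32 and 2.88 in both comparisons with saline, and in polyI:C-pretreated AP versus AP Foxa2 is the filled point, at 1.10.

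Onecut1 (ENSMUSG00000043013, chromosome 9, 74861921 to 74891781, plus strand) encodes a cut-homeodomain factor needed for duct formation, and it had the lowest mean of the 8 in each group. Its saline values overlapped those of Sox4, Klf5 and Hes1. Its level was 6.49 and 3.26 TPM in saline, 3.08 and 1.29 TPM in AP, and 6.35 and 7.39 TPM in polyI:C-pretreated AP. Both AP libraries were below all other libraries, by a narrow margin for AP replicate 1 versus saline replicate 2. The mean was 4.88 ± 2.29 TPM in saline, 2.18 ± 1.27 TPM in AP and 6.87 ± 0.739 TPM after polyI:C pretreatment. The log2 fold change was -1.02 in AP versus saline (SE 0.44, adjusted p = 0.114) and 1.54 between the pretreated and the AP group (SE 0.44, 95% interval 0.48 to 2.60, unadjusted p = 0.0114, adjusted p = 0.188, limma). It was the largest difference of the 8 in that second comparison, and it did not pass the adjustment over all genes. Without polyI:C-pretreated AP replicate 2 it was 1.44 (adjusted p = 0.621). The pretreated group differed from saline by 0.52 (adjusted p = 0.397), and by 0.42 without that library. AP replicate 2 rested on 14.3 estimated reads. A long noncoding gene, Gm20649, overlaps Onecut1 on the same strand.

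Pdx1 (ENSMUSG00000029644, chromosome 5, 147269959 to 147275848, plus strand), the homeodomain factor required for the pancreas to form, had a similar order of means with wider spread. Its level was 19.7 and 11.7 TPM in saline, 13.7 and 6.52 TPM in AP, and 15.2 and 28.1 TPM in polyI:C-pretreated AP. Saline overlapped both other groups, and the polyI:C-pretreated libraries lay above the AP libraries. The means were 15.7 ± 5.64, 10.1 ± 5.05 and 21.7 ± 9.12 TPM. AP differed from saline by -0.65 on the log2 scale (SE 0.46, 95% interval -1.74 to 0.43, adjusted p = 0.302), and polyI:C-pretreated AP differed from AP by 1.09 (SE 0.46, adjusted p = 0.36). Without the library that held intestinal genes the latter was 0.66 (adjusted p = 0.834). The difference of the pretreated group from saline was 0.43 (adjusted p = 0.49), and 0.00082 without that library. The summed level of 14 islet genes, a cell type in which Pdx1 is strong, was 2250 and 1904 TPM in saline, 2379 and 1796 TPM in AP, and 1340 and 1758 TPM in polyI:C-pretreated AP, and its part in the Pdx1 levels was not tested. The antisense gene Plut overlaps Pdx1.

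Sox9 (ENSMUSG00000000567, chromosome 11, 112782224 to 112787760, plus strand) encodes the HMG-box factor that marks progenitors, ducts and centroacinar cells. Its level was 20.04 and 9.17 TPM in saline, 16.4 and 16.9 TPM in AP, and 21.5 and 25.2 TPM in polyI:C-pretreated AP. The AP values lay inside the saline range, and the polyI:C-pretreated values lay above both other groups. The means of 14.6 ± 7.69, 16.7 ± 0.356 and 23.3 ± 2.59 TPM gave log2 fold changes of 0.28 in AP versus saline (SE 0.33, 95% interval -0.51 to 1.08, adjusted p = 0.54) and 0.47 between the pretreated and the AP group (SE 0.33, adjusted p = 0.613), the latter 0.36 without polyI:C-pretreated AP replicate 2. The difference between polyI:C-pretreated AP and saline was 0.75 (95% interval -0.04 to 1.55, adjusted p = 0.119), and 0.64 without that library. The differences from saline turned on which saline library was used. Without saline replicate 1, Sox9 was 0.83 higher in AP (adjusted p = 0.0166) and 1.30 higher after polyI:C pretreatment (adjusted p = 0.00549), and without saline replicate 2 it was -0.26 in AP. The rescaled TPM also turned the AP direction, to -0.13.

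Klf5 (ENSMUSG00000005148, chromosome 14, 99298691 to 99315036, plus strand), a zinc-finger factor of proliferating epithelium, was 9.55 and 4.40 TPM in saline, 13.3 and 11.6 TPM in AP, and 13.7 and 22.2 TPM in polyI:C-pretreated AP. The groups did not overlap, although polyI:C-pretreated AP replicate 1 stood only just above AP replicate 1. The means of 6.98 ± 3.64, 12.5 ± 1.21 and 18.0 ± 5.98 TPM gave log2 fold changes of 0.88 in AP versus saline (SE 0.37, adjusted p = 0.103) and 0.47 between the pretreated and the AP group (SE 0.37, adjusted p = 0.65), the latter 0.14 without the library with intestinal genes (adjusted p = 0.969). PolyI:C-pretreated AP versus saline was called at 1.36 (SE 0.37, 95% interval 0.47 to 2.24, adjusted p = 0.0269, limma). The call was lost in 10 of 15 alternatives. Among them were the fit without the library with intestinal genes (1.02) and that with the rescaled TPM (0.93, adjusted p = 0.119).

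Klf4 (ENSMUSG00000003032, chromosome 4, 55527143 to 55532466, minus strand), a related zinc-finger factor of epithelial differentiation, was 14.9 and 6.68 TPM in saline, 10.1 and 10.6 TPM in AP, and 12.7 and 20.1 TPM in polyI:C-pretreated AP. Saline spanned the AP values and overlapped the polyI:C-pretreated ones. The means were 10.8 ± 5.82, 10.3 ± 0.348 and 16.4 ± 5.25 TPM, and AP differed from saline by 0.04 on the log2 scale (SE 0.39, 95% interval -0.90 to 0.98, adjusted p = 0.954). PolyI:C-pretreated AP was 0.61 above AP (SE 0.39, adjusted p = 0.572) and 0.65 above saline (adjusted p = 0.238), and 0.29 and 0.33 without replicate 2 of that group. The direction in AP versus saline turned with the rescaled TPM (-0.37) and without saline replicate 2 (-0.51). Without saline replicate 1, polyI:C-pretreated AP versus saline passed both thresholds at 1.20 (adjusted p = 0.0403).

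The saline libraries differed from each other for several of the 8 factors. Klf4 was 2.23-fold, Sox9 2.19-fold, Klf5 2.17-fold and Onecut1 1.99-fold higher in saline replicate 1 than in replicate 2, and 7 of the 8 factors were higher in replicate 1, the exception being Foxa2. A gap of at least 2-fold between the saline libraries was seen for 15.6% of tested genes. The summed level in saline replicates 1 and 2 was 559 and 385 TPM for 10 macrophage genes, 114 and 78.4 TPM for 8 endothelial genes, 934 and 659 TPM for 10 stellate cell and fibroblast genes, and 2710 and 3012 TPM for 15 duct genes. The part of these in the gap was not tested.

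Counted by overlap alone, 3 factors (Hes1, Klf5 and Sox4) had both AP libraries above both saline libraries, which 52.6% of tested genes had, and 2 (Onecut1 and Foxa2) had both below, which 16.4% had. With pretreated AP set beside AP, 7 of the 8 lay above, Sox4 being the exception, where 27.7% of genes lay above and 22.1% below. Of the pretreated libraries versus saline, 5 factors lay above (Sox9, Hes1, Klf5, Sox4 and Foxa2), where 54.4% of genes did and 14% lay below. The 8 were chosen with results of these libraries known, so the share of 7 in 8 is a description.

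The order of the levels changed with treatment. In saline, Foxa2 was highest at 31.9 TPM, and the 7 below it, from Pdx1 to Onecut1, could not be told from their neighbours by non-overlapping values. In AP, Sox4 and Hes1 came first at 44.2 and 39.0 TPM, then Foxa2, Sox9 and Klf5, each separate from the next, while Klf4 and Pdx1 overlapped. After polyI:C pretreatment, Foxa2, Hes1 and Sox4 were at nearly the same level, with means of 45.6, 45.4 and 45.3 TPM, and stood apart from Sox9, Pdx1, Klf5 and Klf4, which overlapped in that order. Onecut1 had the lowest mean in each group.

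Hes1 is read out from the Notch pathway, in which ligands such as Jag1 bind receptors that ADAM proteases and gamma-secretase cut, so that the receptor's inner part joins Rbpj on DNA. Of 21 tested pathway genes, 2 were called higher and 3 lower in AP versus saline, with a median log2 fold change of 0.48. Those higher were the protease Adam17 (1.25, adjusted p = 0.000507) and the Hes-related Heyl (1.06, adjusted p = 0.0298). Those lower were the Fringe enzymes Lfng (-1.38) and Rfng (-1.10), which tune receptor binding, and Notch1 (-1.37, SE 0.24, adjusted p = 0.00438), from 50.9 and 37.6 TPM to 18.2 and 15.1 TPM. Notch2, at 17.5 and 12.4 TPM in saline and 28.7 and 30.3 TPM in AP, was 0.98 higher (adjusted p = 0.00543), Rbpj 0.78 and Jag1 0.67, each past the p threshold and under 2-fold. With the rescaled TPM the 3 lower calls were made and neither higher one. On leaving out 1 library, the Adam17 call was always kept, and the Heyl call was kept only without saline replicate 1. The Notch1 and Rfng calls were lost without either AP library, and that of Rfng also without saline replicate 1. The Lfng call was lost without AP replicate 2.

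In polyI:C-pretreated AP versus AP, limma called 0 of the 21 Notch genes (2 had an unadjusted p under 0.05), with a median of 0.22. Adam10, the other Notch protease, went from 125 and 128 TPM in AP to 224 and 231 TPM, a log2 difference of 0.85 (adjusted p = 0.0743). Against saline, 3 were called higher (Heyl 1.74, Adam10 1.55 and Adam17 1.15) and 1 lower (Lfng, -1.47), and the same counts were found without polyI:C-pretreated AP replicate 2.

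The KLF and SOX families hold relatives of 4 of the 8 factors. Of 11 other KLF genes, Klf6, a factor induced by injury, was called higher in AP versus saline (2.12, adjusted p = 8.69e-05), from 77.5 and 76.9 TPM to 306 and 370 TPM. Klf15 (-2.67) and Klf9 (-1.16), both known as targets of the glucocorticoid receptor, were called lower. Of 5 other tested SOX genes, Sox6 was called lower (-1.73, adjusted p = 0.000745), from 11.1 and 9.85 TPM to 3.38 and 2.33 TPM. No KLF or SOX gene was called by limma in polyI:C-pretreated AP versus AP (3 and 2 had an unadjusted p under 0.05). Sox12, the SoxC relative of Sox4, was 3.18 and 3.13 TPM in saline and 0.797 and 0.739 TPM in polyI:C-pretreated AP (-1.53, adjusted p = 0.0207), opposite in direction to Sox4. The pretreated values of Sox12 rested on only 9.30 and 10.8 estimated reads. Without replicate 2 of that group the difference was -1.49 (adjusted p = 0.0872), and the Sox12 call was also lost without replicate 1 of it or without either saline library.

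Of 19 tested other progenitor and duct factors, 2 were called higher and 0 lower in AP versus saline, where 3 more had an unadjusted p under 0.05 (median 0.14). These were Elf3 (1.93, SE 0.20, adjusted p = 0.000546) and Ehf (1.12, SE 0.14, adjusted p = 0.00127), ETS factors of simple epithelium. Elf3 was 6.95 and 6.75 TPM in saline, 26.3 and 28.9 TPM in AP, and 28.5 and 38.0 TPM in polyI:C-pretreated AP. After polyI:C pretreatment, relative to AP, 0 of the 19 were called by limma, with 3 at an unadjusted p under 0.05. Added to these versus saline was Hnf4a (1.21, adjusted p = 0.0367), at 25.4 and 51.8 TPM in polyI:C-pretreated AP, and it was 0.71 without the library with intestinal genes (adjusted p = 0.192). The call was also lost without saline replicate 2 or either AP library. With the rescaled TPM, Elf3 was called higher and Gata4 and Gata6 lower in AP, and the list's median was -0.28.

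Of 6 acinar identity factors, the counterpart of the duct factors in the exocrine pancreas, 1 was called higher and 2 lower in AP versus saline, and 2 were called higher in polyI:C-pretreated AP versus AP. In AP versus saline, Bhlha15 (Mist1), which builds the secretory apparatus, was lower by -2.83 (SE 0.12, adjusted p = 3.94e-05), and Rbpjl, the acinar partner of Ptf1a, by -1.23 (SE 0.15, adjusted p = 0.0012). Bhlha15 was 391 and 326 TPM in saline, 53.6 and 46.4 TPM in AP, and 161 and 171 TPM in polyI:C-pretreated AP. Rbpjl was 238 and 195 TPM, 104 and 79.8 TPM, and 196 and 191 TPM in the same order. Like Foxa2, both were called higher in polyI:C-pretreated AP versus AP, at 1.73 (adjusted p = 0.00397) and 1.08 (adjusted p = 0.0335), and the differences were 1.68 and 1.10 without polyI:C-pretreated AP replicate 2. Like that of Foxa2, both calls were lost on leaving out any 1 of the 4 libraries of these groups. The Rbpjl call was also lost without either saline library, where the Bhlha15 call was kept. Xbp1, of the unfolded protein response, was called higher in AP (1.01, adjusted p = 0.000419). The Xbp1 call was lost with the rescaled TPM, without saline replicate 1 and without AP replicate 1. With the rescaled TPM, 0 of these factors were called higher in AP and 3 lower, Gata4 being added.

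**Figure D3:**
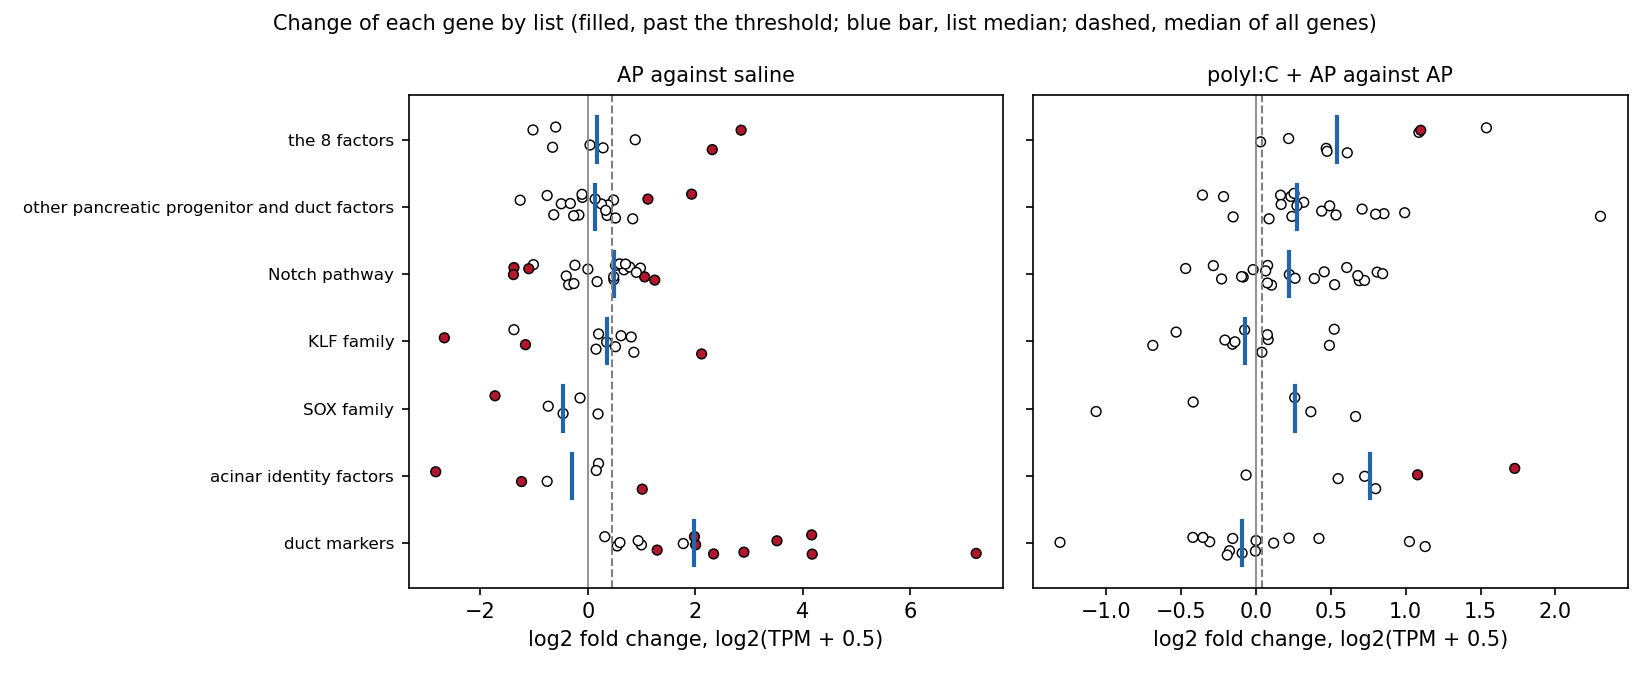
log2 fold change (x axis, log2(TPM + 0.5) scale) of each tested gene of 7 lists (rows) in AP versus saline (left) and polyI:C-pretreated AP versus AP (right), filled where called, with a blue bar at each list's median and a dashed line at the median of all tested genes. The duct markers lie farthest to the right in AP versus saline, with a median of 1.98 and 9 of 15 filled, and in the right panel the filled points are Foxa2, Bhlha15 and Rbpjl.

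Duct markers were checked beside the duct factors. Of 15 duct genes, 9 were called higher and 0 lower in AP versus saline, the 2 largest being the claudin Cldn4 (7.22) and the keratin Krt19 (4.17), and 2 more had an unadjusted p under 0.05. Krt19 was 51.2 and 62.4 TPM in saline and 1016 and 1041 TPM in AP. Sox9, the duct factor, stayed within its wide saline range of 9.17 to 20.04 TPM. Its log2 difference in AP versus saline was -0.26 to 0.83 on leaving out 1 library. The summed level of the 15 genes was 2710 to 3012 TPM in saline, 34770 to 37132 TPM in AP and 26073 to 33021 TPM in polyI:C-pretreated AP, with no marker at 0 in any library. Most of the sum came from the keratins Krt8 and Krt18, so it mainly describes those keratins. In AP, Krt8 stood at 15874 and 17678 TPM and Krt18 at 13497 and 13595 TPM. Car2 and Muc1 were among the genes not called in AP versus saline. Relative to AP, the pretreated group had 0 of the 15 called by limma (2 had an unadjusted p under 0.05), with a median of -0.09. Against saline 11 were called higher, and 9 without polyI:C-pretreated AP replicate 2. Of 20 acinar genes of digestive enzymes and zymogen granule proteins fixed as markers, 3 had values, the others being not analysed here. The TPM shares and the depth leave those others out. Sycn, the most abundant of the 3, was 98753 and 86866 TPM in saline, 31898 and 21348 TPM in AP, and 14466 and 11044 TPM in polyI:C-pretreated AP.

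Markers of other cells moved with the same groups. The summed level of 10 macrophage and monocyte genes was 385 to 559 TPM in saline, 2422 to 2674 TPM in AP and 398 to 494 TPM in polyI:C-pretreated AP. Of these 10, 8 were called higher in AP versus saline and 7 lower in polyI:C-pretreated AP versus AP, with a list median of -2.22 in the latter. Without replicate 2 of the pretreated group that median was -2.11 and 0 were called by limma (9 had an unadjusted p under 0.05). The count was also 0 without AP replicate 1 (9 at that p) or AP replicate 2 (8 at that p), and 1 gene was called without replicate 1 of the pretreated group. In polyI:C-pretreated AP versus saline, 3 of the 10 were called higher and 3 lower, although the sums were near each other. The paper's flow cytometry found no effect of polyI:C on macrophage infiltration. The sum of 6 measured neutrophil genes was 5.15 to 16.6 TPM, 59.9 to 69.4 TPM and 19.6 to 43.9 TPM, with S100a8, Cxcr2 and Camp at 0 in some libraries. The sum of 10 stellate cell and fibroblast genes was 659 to 934 TPM, 932 to 1151 TPM and 779 to 940 TPM, and 5 of them were called higher in AP versus saline. The sum of 8 endothelial genes was 78.4 to 114 TPM, 96.2 to 97.2 TPM and 93.1 to 125 TPM, with 0 called by limma in any comparison (at most 1 at an unadjusted p under 0.05). The sum of 8 genes of cycling cells was 55.5 to 56.7 TPM, 131 to 141 TPM and 89.4 to 122 TPM, and 3 were called higher in AP versus saline. Apart from these values, the part of other cell types in the levels of the 8 factors was not tested.

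**Figure D4:**
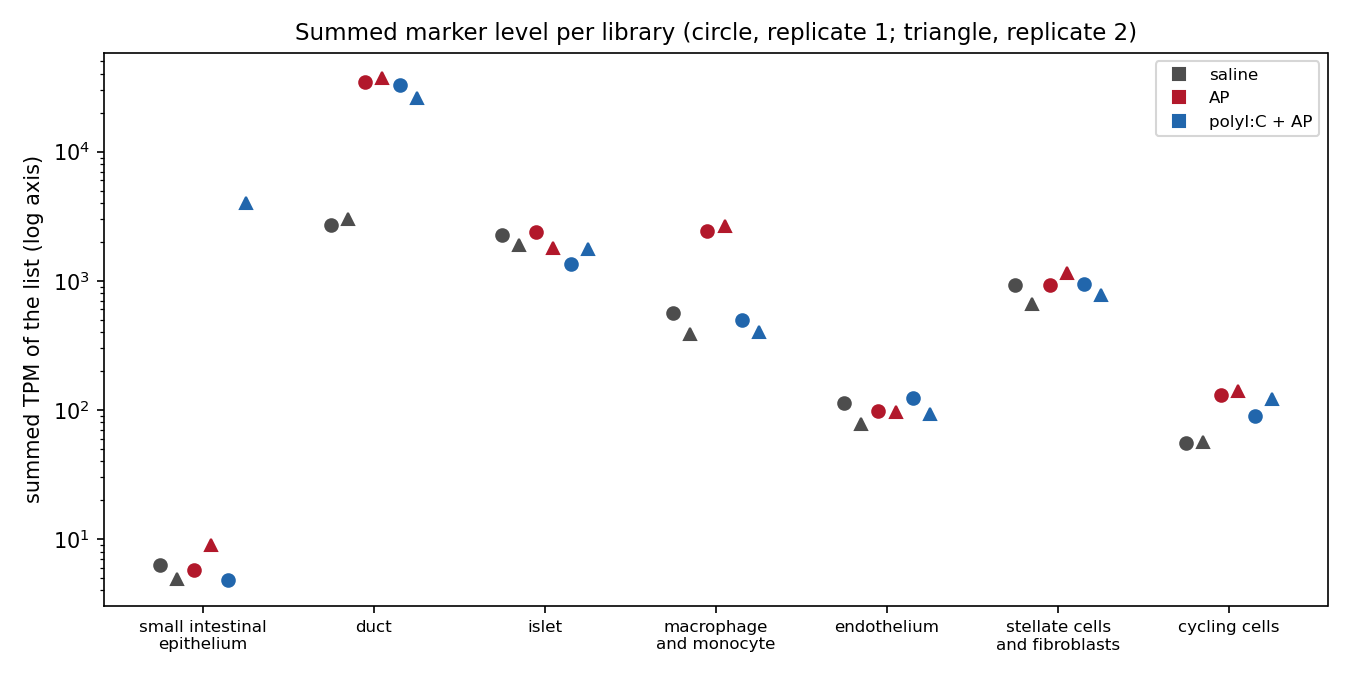
Summed level in TPM (y axis, log axis) of 7 lists of cell type markers (x axis) in each library, with a colour for each group, circles for replicate 1 and triangles for replicate 2. The small intestinal list stands at 3979 TPM in 1 polyI:C-pretreated AP library and at 8.99 TPM or less in the other 5, and the macrophage list is highest in AP at 2422 and 2674 TPM.

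Likeness to other genes was described by the root mean square difference of log2(TPM + 0.5) profiles over the 6 libraries, each centred on its own mean, among 8488 protein-coding candidates with a mean of at least 10 TPM. The genes most like Sox4 were Epcam, a surface protein of simple epithelium, at 0.06, and the tubulin gene Tubb5 at 0.12. Epcam was 120 and 117 TPM in saline, 864 and 916 TPM in AP, and 826 and 959 TPM in polyI:C-pretreated AP. Closest to Hes1 were Pafah1b3 (0.11) and St3gal1 (0.13), and closest to Foxa2 were the kinase gene Plk2 (0.09) and Stard13 (0.16). Plk2 was 204 and 223 TPM, 155 and 155 TPM, and 310 and 272 TPM in the same order of groups. For Sox9 these were Shld2 and Rfesd (0.11 each), for Klf4 Naip6 (0.19) and the cyclin gene Ccnd2 (0.20), and for Klf5 Pld1 (0.15) and Nkrf (0.18). For Pdx1 and Onecut1 no gene came closer than 0.29 and 0.30 (D630039A03Rik and Lrp4). With 6 libraries in 3 groups, many genes share such a profile, and the differences carry no p.

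Among themselves, the closest pair of factors was Sox9 and Klf4, with a difference of 0.16, followed by Hes1 and Sox4 (0.27), Pdx1 and Onecut1 (0.28), and Sox9 and Klf5 (0.32). Foxa2 was closest to Onecut1 (0.49) and then to Klf4 (0.51).

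**Figure D5:**
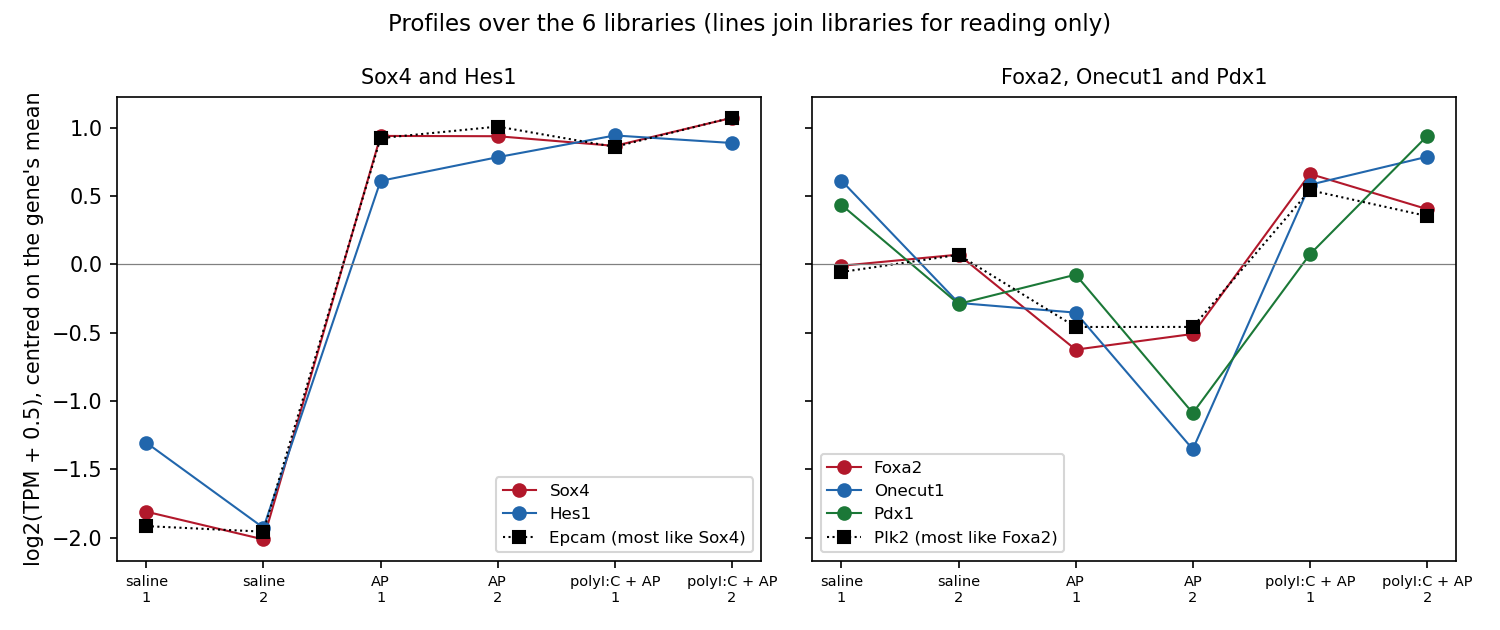
Centred log2(TPM + 0.5) profiles (y axis) over the 6 libraries (x axis) for Sox4, Hes1 and Epcam (left) and for Foxa2, Onecut1, Pdx1 and Plk2 (right), with lines joining libraries for reading only. Sox4 and Epcam nearly coincide, with a difference of 0.06, and Foxa2, Onecut1 and Pdx1 each have their lowest value in an AP library.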

How the data were processed

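RNA of whole pancreas was sequenced in 6 libraries, and the deposited values are TPM per Ensembl gene. Before that, per the study's methods and processing notes, the authors used Trimmomatic for trimming, STAR for mapping (build mm10) and HTSeq for counting. How counts became TPM, and the strand setting, are not given in the sources used here, and the authors' DESeq2 results were not used. The labels name both a ribosomal RNA removal kit with a directional kit and an mRNA kit, and place all libraries on the same sequencing lane. The interval between polyI:C and caerulein in the sequenced mice is not given.

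Groups came from the treatment label. Symbols, GRCm38 coordinates and exon lengths came from GENCODE M21, in which 22490 of 22556 identifiers were found. As the tables hold no counts, limma 3.58.1 (R 4.3.3) was fitted to log2(TPM + 0.5) over all 6 libraries with 1 coefficient per group, and tests covered 16814 genes whose mean reached 1 TPM. The variance prior followed log2(mean TPM × exon length + 1). P-values were adjusted by Benjamini-Hochberg over all tested genes, and a call needed both an adjusted p up to 0.05 and a change of 2-fold or more. Depth was estimated from the spacing of low TPM values: 51.2% to 62.4% of values up to 20 reads fell within 0.1 of a whole read, against 19.2% to 20.7% with gene lengths shuffled. That share was too low to recover whole reads, so no count test was run.

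On simulated data with a dispersion of 0.05, the fit recovered 127 of 187 genes changed 4-fold in AP versus saline (67.9%), with 11 false calls among 16677 genes tested. The dispersion was set and not taken from these data. The simulation changed 0 genes between polyI:C-pretreated AP and AP, so it does not show recovery in that comparison or of smaller changes. The 8 factors and the gene lists were chosen with earlier results of these data known. The intestinal list, and the recalculation of list counts without each library and with rescaled TPM, were chosen after seeing the data. Named are the 8 factors, up to 5 called genes per list with the largest change, genes paired with a factor by function, and the 2 protein-coding genes most like each factor. Naming of Hnf4g, Gata4, Gata6, Adam10 in polyI:C-pretreated AP versus AP, and the intestinal genes came after their values were seen. Replicate numbers were taken from the titles, and no deposited column was left without a sample.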

Additional observations from a re-analysis of the deposited data

How the results depend on the processing

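The rises of Hes1 and Sox4 over saline were called in AP and in polyI:C-pretreated AP in all 15 alternatives, with adjusted p of at most 0.0209. Of 119 recalculated log2 fold changes of the 8 factors in AP versus saline, 113 kept direction and call, as did 108 in polyI:C-pretreated AP versus AP and 106 in polyI:C-pretreated AP versus saline. In AP versus saline, 3730 genes were called, and leaving out 1 library gave 2458 to 3757, the lowest without AP replicate 2. Of the 8, 2 were called, and 3 with median-of-ratios scaling (Foxa2 added) or without saline replicate 1 (Klf5 added). Higher and lower calls over all genes went from 3053 and 677 to 1566 and 1220 with that scaling.

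Pretreated AP versus AP had 142 genes called, 90 with no filter on low values, 28 with a prior trend on the mean log2 value, 41 with no prior trend and 248 with only the 2 groups in the fit. Leaving out 1 library gave 0 to 141, with 0 without AP replicate 1, AP replicate 2 or polyI:C-pretreated AP replicate 2 and 66 without replicate 1 of the pretreated group. The Foxa2 call was lost, leaving 0 of the 8, with no filter (adjusted p = 0.0552), a prior on the mean (0.0735), no prior trend (0.133), the replicate block (0.0536) and on leaving out each library in turn (0 to 0 of the 8 called, adjusted p from 0.0523 to 0.354). In polyI:C-pretreated AP versus saline, 3 of the 8 were called, and 2 to 5 on leaving out 1 library, 5 without saline replicate 1 (Sox9 and Klf4 added). The Klf5 call was lost in 10 of 15 alternatives.

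Directions reversed for Sox9 in AP versus saline with median-of-ratios scaling (-0.13) and without saline replicate 2 (leaving out 1 library gave -0.26 to 0.83), for Klf4 likewise (-0.37, and -0.51 to 0.59), for Pdx1 in polyI:C-pretreated AP versus saline with that scaling (-0.0092), and for Sox4 in polyI:C-pretreated AP versus AP without polyI:C-pretreated AP replicate 2 (leaving out 1 library gave -0.072 to 0.13). The cause was not tested. With a filter of 5 TPM, Onecut1 was not tested.

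Replicate numbers did not pair the libraries: correlations of same-numbered deviations were 0.0075, -0.0039 and 0.035. With the replicate block, 3646, 124 and 3287 genes were called in the 3 comparisons, against 3730, 142 and 3338 without it. Low reads limit Onecut1 and the saline levels of Hes1 most, with 14.2 to 39.0 estimated reads behind their saline values.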
